A study of Mus musculus with 38 samples.

Results

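Dextran sodium sulfate (DSS) is a polymer that injures the colonic epithelium when mice drink it and is widely used to induce colitis. The layer it injures consists of absorptive colonocytes, mucus-secreting goblet cells, hormone-secreting enteroendocrine cells and chemosensory tuft cells, all renewed from stem cells at the crypt base. During DSS colitis leukocytes enter the mucosa, and epithelial cells are known to make antimicrobial proteins, chemokines and antigen-presenting molecules. Hexokinase 2, encoded by Hk2, catalyses the first step of glycolysis and can bind the outer mitochondrial membrane.

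RNA sequencing counts are described for intestinal epithelial cells of KO mice on day 7 against day 3 of DSS. These are 15 of the 38 libraries of the series, chosen by their titles: 8 libraries from KO mice on day 3 and 7 libraries from KO mice on day 7. KO mice carried floxed Hk2 alleles and a Cre recombinase that the Villin promoter drives in intestinal epithelium, so other cells of the tissue kept Hk2. Beside them stand WT littermates, which carried the floxed Hk2 alleles without Cre, with 7 libraries on each day. All of these animals were C57BL/6 males aged 10 to 12 weeks that received 1.5% DSS in their drinking water, and the genotypes shared cages. Each library came from 1 animal, so p-values measure the spread between animals. The text of the series speaks of colon tissue, and the labels of the libraries speak of epithelial cells isolated from the intestine. By its title the study is about Hk2, mitochondria and how cells die in colitis. The comparison asks how the epithelium of mice labelled KO changed between the early and the late day of DSS.

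Levels are CPM (counts per M, or mega, of total counts) after TMM scaling, which corrects library totals for composition. Changes are log2 fold changes of day 7 against day 3, with their standard error (SE) where given. A gene is said to rise or fall where the Benjamini-Hochberg adjusted p of edgeR's quasi-likelihood test over all genes tested was under 0.05. For single genes the lowest, the median and the highest level of a group are given in that order. Because these are bulk samples, fewer cells of a type and less RNA per cell cannot be told apart.

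Levels of the targeted gene overlapped between KO and WT on both days, and 1 KO library lay above every WT library of its day. Hk2 (chr6:82725025-82774454, minus strand) stood at 69.7, 112 and 433 CPM on day 3 and at 55.9, 126 and 262 CPM on day 7. The library labelled d3_KO_345 held the highest value, 433 CPM, and the other 7 day 3 libraries lay between 69.7 and 129 CPM. In WT the levels were 98.3, 182 and 225 CPM on day 3, below that library, and 227, 304 and 607 CPM on day 7. Of the day 7 KO libraries, d7_KO_420 at 262 CPM lay above the lowest WT library. The exons that the floxed allele loses are not given in the sources used here, so the summed gene count may include reads from exons that remain. Hk2 did not pass the test between the days in KO: the log2 fold change was -0.08 ± 0.39 SE, adjusted p = 0.924, and 0.40 (adjusted p = 0.333) without the library labelled d3_KO_345. Because of that library the counts of lists are given with and without it, and the genes named are so compared at the end.

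That library also stood apart in other respects. On the first principal component of the KO libraries, which held 48.6% of the variance, it lay at 9.6, whereas the other day 3 libraries lay between -70.3 and -32.7 and the day 7 libraries between 18.6 and 75.9. A day 7 library, d7_KO_420, lay apart on the second component and carried the most neutrophil and haemoglobin transcripts. Animal numbers in the titles fall into a lower range, from d3_KO_345 to d7_KO_368 (4 libraries on day 3, 3 on day 7), and a higher range, from d3_KO_385 to d7_KO_423 (4 and 4). The labels give these ranges no meaning, and no difference between the ranges was tested. Total counts were 27.6 to 47.6 M in KO day 3 and 37.6 to 60.6 M in KO day 7. Counts from mitochondrial-genome genes other than ribosomal RNA took 10.2 to 23.4% and 10.5 to 16.0% of them.

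Markers of the labelled cell type were abundant on both days. All 14 epithelial markers, among them Epcam, Cdh1, Krt8 and Vil1, were tested, and their summed level was 17064 to 25563 CPM on day 3 and 17899.6 to 25456 CPM on day 7. Of the 14, 0 rose and 1 fell, and 0 fell without the library labelled d3_KO_345. Epcam, an adhesion molecule of the lateral membrane, differed by 0.01 ± 0.08 SE, adjusted p = 0.971. The summed epithelial ranges of the days overlapped almost wholly, which was not so for the leukocyte markers described with the immune genes.

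Between the days, 3008 of 15568 genes tested changed in KO, which is 19.3% of them. Of these, 1633 rose on day 7 (10.5% of genes tested) and 1375 fell (8.83%), and the median log2 fold change over all genes tested was -0.01. Without the library labelled d3_KO_345, 3425 of 15413 genes changed (22.2%), with 1828 higher (11.9%) and 1597 lower (10.4%). The calls shared by both fits numbered 2817, all with the same direction. Under a rule that also asks for at least a 2-fold change, 1261 genes remained, 799 higher and 462 lower. The 7 day 7 libraries lay wholly above the 8 day 3 libraries for 410 of the genes tested (2.63%) and wholly below them for 382 (2.45%). Leaving out the library labelled d3_KO_345 raised these to 815 (5.24%) and 558 (3.58%). Within the lower-numbered animals, 1804 of 16054 genes changed (11.2%, with 4.69% higher and 6.55% lower). With the library labelled d3_KO_345 left out there, 5423 of 15802 changed (34.3%, with 17.3% higher and 17.1% lower). Within the higher-numbered animals, 1183 of 15453 changed (7.66%, with 4.85% higher and 2.8% lower). Counts given below for gene lists are to be read beside these shares of the same fit.

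The largest rises included genes of antimicrobial defence and of neutrophils. The 12 protein-coding genes with the largest rises at a mean log2 CPM of at least 2 were Mmp8, Lcn2, S100a8, Retnlg, S100a9, Chil3, Ltf, Saa3, Lrg1, Hp, Il1a and Nos2. Their log2 fold changes ran from 4.62 to 7.36. Nos2, the inducible nitric oxide synthase, stood at 2.04, 3.76 and 8.13 CPM on day 3 and at 41.3, 126 and 191 CPM on day 7. No day 7 library overlapped the day 3 range, and the change was 4.62 ± 0.38 SE, adjusted p = 4.77e-06, with 4.80 (adjusted p = 4.7e-06) without the library labelled d3_KO_345. Lcn2, which encodes the siderophore-binding protein lipocalin 2, stood at 0.0206, 0.0811 and 0.952 CPM and then at 0.850, 8.02 and 143 CPM. The change in Lcn2 was 6.95 ± 1.19 SE, adjusted p = 0.000648, and 8.27 (adjusted p = 0.000414) without that library, which held the highest day 3 value. Without d7_KO_420, which held the highest day 7 value, it was 4.85 (adjusted p = 0.000349). With the library labelled d3_KO_345 left out no day 3 value reached the day 7 range.

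**Figure D1:**
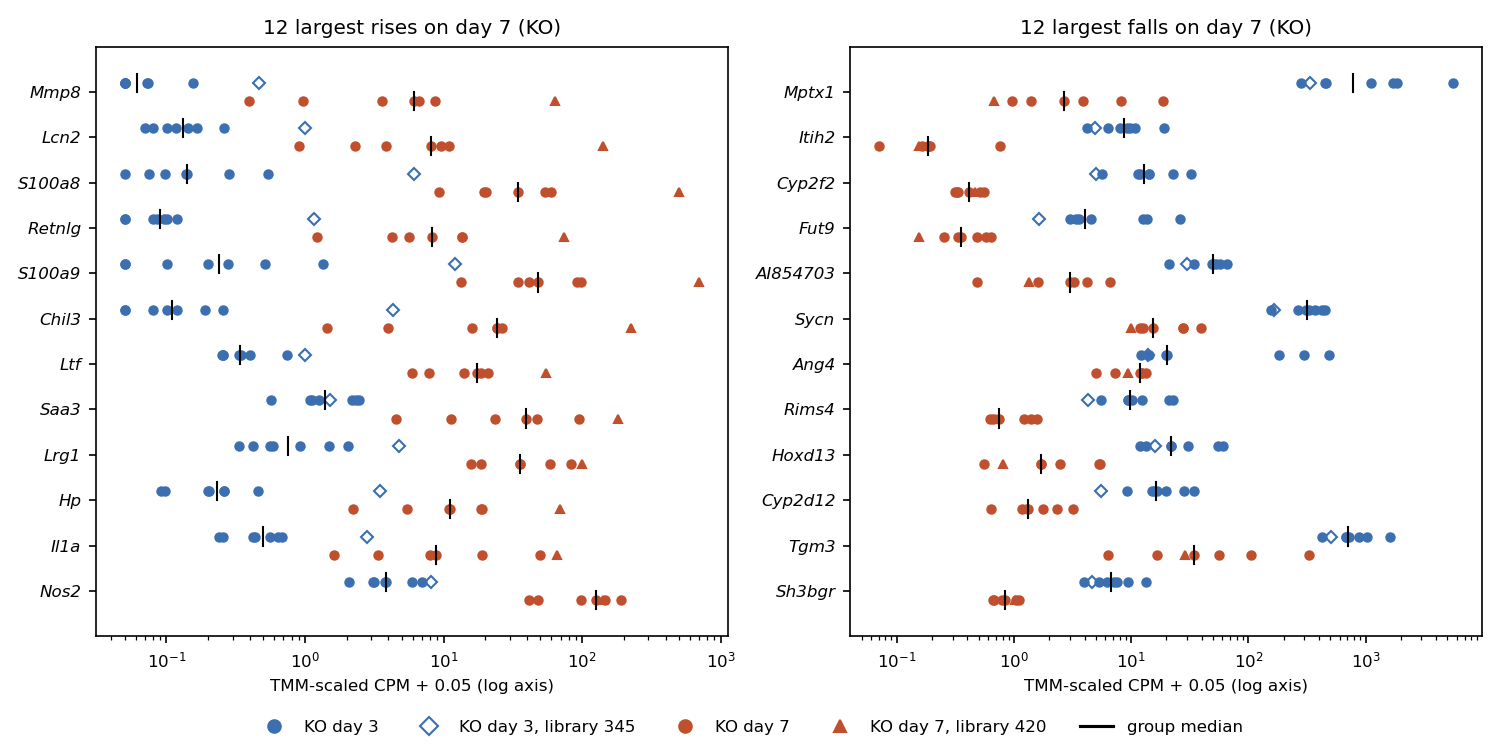
Levels of the 12 genes with the largest rises (left) and the 12 with the largest falls (right) on day 7 against day 3 in KO, as TMM-scaled CPM plus 0.05 on a log axis. Points are libraries (8 on day 3, 7 on day 7), black ticks are group medians, the open diamond is the library labelled d3_KO_345 and the triangle is d7_KO_420. The diamond lies at the upper end of the day 3 points for most of the genes that rose, and the triangle at the upper end of the day 7 points for most of them.

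Most of the antimicrobial and acute phase genes tested rose. Of 30, 19 rose, against 10.5% of all genes tested, and 1 fell, with a median log2 fold change of 1.62 against -0.01 over all genes, and 1.81 without the library labelled d3_KO_345, where 19 rose and 1 fell as well. Reg3b, a bactericidal lectin secreted by epithelium, stood at 49.2, 339 and 1304 CPM on day 3 and 4086, 7200.1 and 13002 CPM on day 7, a change of 3.87 ± 0.70 SE, adjusted p = 0.000927. Its relative Reg3g went from 92.8, 207 and 629 CPM to 1150.3, 1629 and 3254 CPM, a change of 2.81 ± 0.43 SE, adjusted p = 0.000287. Every day 7 library lay above every day 3 library for both genes. Ltf, which encodes the iron-binding lactoferrin, rose from 0.204, 0.289 and 0.952 CPM to 5.91, 17.5 and 54.7 CPM (5.63 ± 0.52 SE, adjusted p = 9.88e-06). Saa3, an acute phase serum amyloid, rose from 0.515, 1.34 and 2.40 CPM to 4.47, 39.2 and 181 CPM (5.26 ± 0.68 SE, adjusted p = 7.71e-05).

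The genes that make reactive oxygen and nitrogen species moved unevenly. Duox2, a dual oxidase that releases hydrogen peroxide at the apical surface, stood at 92.6, 126 and 242 CPM and then at 291, 411 and 690.1 CPM, a change of 1.64 ± 0.23 SE, adjusted p = 0.00016. Its maturation factor Duoxa2 changed by 2.46 ± 0.40 SE, adjusted p = 0.000427. The ranges of both genes were separate. Nox1, the oxidase of colonocytes, differed by -0.42 ± 0.31 SE, adjusted p = 0.401, its organiser Noxo1 by -0.16 and its activator Noxa1 by 0.17, and none of these passed. Dmbt1, a mucosal scavenger protein, was already high at 4185, 5788 and 7241 CPM and rose to 10404, 13405 and 14026 CPM (1.16 ± 0.12 SE, adjusted p = 1.73e-05). Ido1, which degrades tryptophan, rose from 1.10, 9.69 and 23.1 CPM to 30.4, 71.3 and 324 CPM (3.41 ± 0.71 SE, adjusted p = 0.00267), again with separate ranges. Slpi, an antiprotease, changed by 2.34 ± 0.65 SE, adjusted p = 0.0178, and by 3.02 (adjusted p = 0.00169) without the library labelled d3_KO_345, which held 31.9 CPM against a day 3 median of 3.69 CPM. Pigr, the receptor that carries IgA across the epithelium, stood at 3585, 4582 and 6556 CPM and 4289.9, 4463 and 5148 CPM and did not pass (-0.04 ± 0.12 SE, adjusted p = 0.869). Ang4, an antimicrobial ribonuclease, fell, and is described with the other losses.

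Markers of neutrophils rose in every case tested. Of 19 listed genes, 16 were tested and 16 rose, against 10.5% of all genes tested, with a median log2 fold change of 4.35. Their summed level was 14.2, 42.3 and 187 CPM on day 3 and 159, 251 and 2278 CPM on day 7. Much of the day 3 sum was Ly6g, whose levels are given in the next paragraph. The library labelled d3_KO_345 held the day 3 maximum, inside the day 7 range, and d7_KO_420 held the day 7 maximum. Without the former all 15 genes tested rose, with a median of 6.56. Members near 0 on day 3 reached the filter on low counts mainly through day 7 libraries, which favours rises among the genes tested. S100a8, which with S100a9 forms the granulocyte protein calprotectin, stood at 0, 0.0900 and 6.06 CPM on day 3 and 9.19, 34.6 and 501 CPM on day 7, a change of 6.73 ± 1.20 SE, adjusted p = 0.000887. The ranges of the days did not overlap even with all libraries.

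Several neutrophil genes were at or under 3 counts in each remaining day 3 library, so only lower bounds of the fold are given for them. Against the level of 3 counts, averaged over the 7 libraries, Mmp8, which encodes neutrophil collagenase, was at least 166-fold higher. Retnlg, a resistin-like protein, was at least 222-fold higher, and the formyl peptide receptors Fpr2 and Fpr1 at least 51.7-fold and 31.4-fold higher. These bounds rest in part on d7_KO_420: without it as well, they were 56.2-fold for Mmp8, 99.6-fold for Retnlg, 44.0-fold for Fpr2 and 23.1-fold for Fpr1. Of the genes of granule proteins made in immature neutrophils, Mpo lay at 0 to 0.0522 CPM on day 7, and Camp had a day 7 median of 0.0380 CPM with 7.27 CPM in d7_KO_420. Ngp, also of this kind, had a day 7 median of 1.10 CPM with 184 CPM in that library. These 3 genes were too low to be tested. Ly6g, which marks mouse granulocytes but was already present at 13.8, 40.0 and 112 CPM on day 3, changed by 1.57 ± 0.50 SE, adjusted p = 0.0383. Among the 16 it had the smallest change, and it lost the call when any of 10 single libraries was left out (adjusted p up to 0.109).

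Macrophage and monocyte markers rose in 14 of 16 genes, with a median log2 fold change of 2.78. Leaving out the library labelled d3_KO_345, all 16 rose, with a median of 3.37. The summed level went from 45.2, 53.9 and 216 CPM to 116, 373 and 749 CPM. Cybb, the catalytic chain of the phagocyte oxidase, stood at 0.816, 1.22 and 4.39 CPM and then at 3.50, 16.3 and 27.3 CPM (3.25 ± 0.45 SE, adjusted p = 0.000127). C1qb, a chain of complement C1q, went from 0.728, 1.56 and 4.05 CPM to 4.64, 9.70 and 34.5 CPM with no overlap (2.83 ± 0.47 SE, adjusted p = 0.000539). Ccr2 (adjusted p = 0.0592) and the mannose receptor Mrc1 (adjusted p = 0.415) did not pass with all libraries and passed without the library labelled d3_KO_345, with changes of 3.75 and 1.98.

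Lymphocyte markers rose by smaller medians. Of 15 T cell and intraepithelial lymphocyte genes tested, 14 rose, with a median log2 fold change of 1.04, and the same number rose without the library labelled d3_KO_345. Gzma, which encodes granzyme A, went from 6.002, 7.44 and 10.1 CPM to 12.8, 24.9 and 47.5 CPM (1.74 ± 0.25 SE, adjusted p = 0.000164). Gzmb went from 6.47, 7.50 and 9.11 CPM to 10.5, 18.7 and 32.7 CPM (1.48 ± 0.19 SE, adjusted p = 6.9e-05). Ptprc, the pan-leukocyte antigen CD45, went from 13.97, 18.6 and 22.2 CPM to 31.6, 51.5 and 80.0 CPM (1.43 ± 0.17 SE, adjusted p = 4.83e-05), and these 3 genes had separate ranges. Within the lower-numbered animals without the library labelled d3_KO_345, 4 of the T cell genes rose (17.3% of all genes), and within the higher-numbered animals, 10 (4.85% of all genes). Of 8 B and plasma cell genes tested, 5 rose, a count that single libraries moved: it was 4 without the library labelled d3_KO_345, 1 without d7_KO_367, 2 without d3_KO_349 or d3_KO_385, and 3 without d3_KO_351, d3_KO_388 or d7_KO_366. It was also 1 among genes with a mean CPM of at least 1 and 2 with 1 lane. Ighm, the heavy chain of IgM, changed by 1.496 ± 0.20 SE, adjusted p = 0.000118. Stromal and endothelial markers rose in 2 of 12, against 10.5% of all genes tested, both also without the library labelled d3_KO_345. Erythrocyte genes rose in 0 of 5, with d7_KO_420 at 537 CPM of summed erythrocyte genes against a day 7 minimum of 7.61 CPM. The median of the erythrocyte genes was -0.55 within the lower-numbered animals without the library labelled d3_KO_345 and 2.88 within the higher-numbered animals. How far these cell types contributed to the changes of genes that both epithelium and leukocytes express was not tested.

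**Figure D2:**
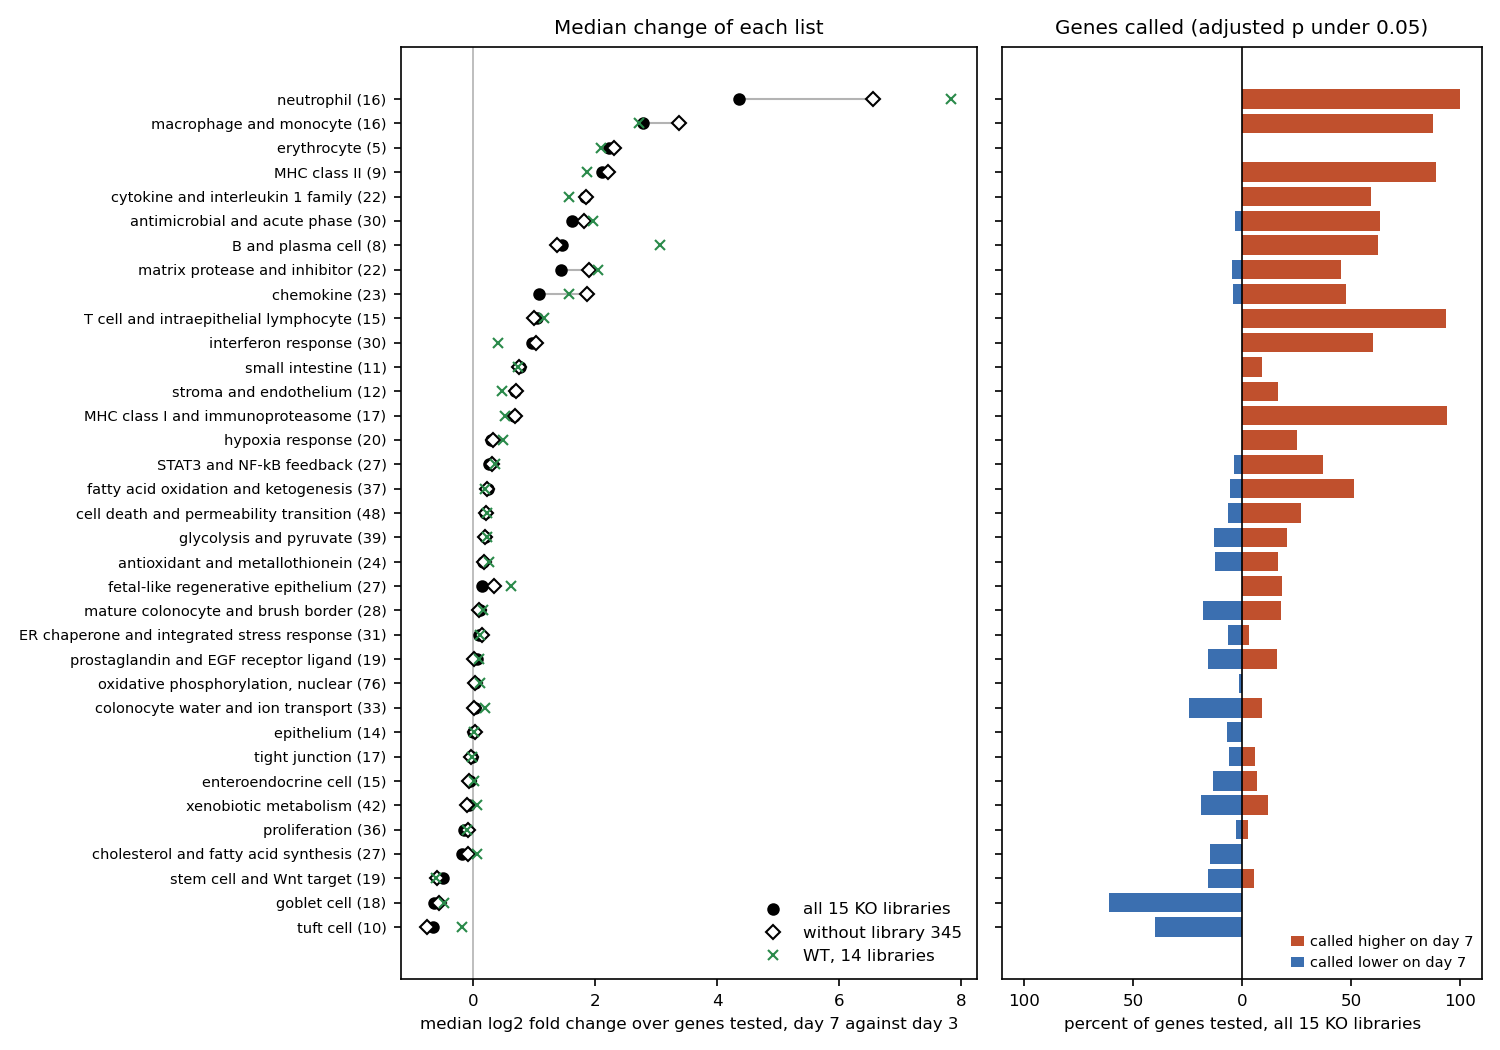
Left, the median log2 fold change of day 7 against day 3 over the tested genes of each of 35 lists; filled circles are all 15 KO libraries, diamonds the KO libraries without the library labelled d3_KO_345 and crosses WT. Right, the percent of tested genes of each list that rose (to the right) or fell (to the left) with all 15 KO libraries; numbers after the names are genes tested. Neutrophil genes show the highest median, 4.35 with all KO libraries and 6.56 without that library. Tuft and goblet cell genes show the lowest with all KO libraries, at -0.66 and -0.65, and without that library the stem cell list at -0.60 lies below the goblet cell list at -0.56.

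Chemokine genes that attract neutrophils and monocytes were among those that rose. Of 27 listed, 23 were tested. Of these, 11 rose and 1 fell, against 10.5% and 8.83% of all genes tested, with a median log2 fold change of 1.07. Members near 0 on day 3 can reach the filter on low counts mainly through day 7 libraries, as in the neutrophil list, which favours rises. Without the library labelled d3_KO_345, 16 rose and the median was 1.87. Cxcl2, a ligand of the neutrophil receptor CXCR2, stood at 1.22, 1.30 and 45.9 CPM on day 3 and at 16.9, 45.4 and 396 CPM on day 7. The library labelled d3_KO_345 held 45.9 CPM, and without it the ranges were separate. The change was 3.71 ± 0.997 SE, adjusted p = 0.0144, and 5.96 (adjusted p = 3.71e-05) without that library. Cxcl5, another ligand of that receptor, went from 1.10, 2.33 and 5.38 CPM to 5.20, 10.2 and 19.1 CPM (2.21 ± 0.38 SE, adjusted p = 0.000695). Ccl3 and Ccl4, which attract monocytes and T cells, rose by 4.24 and 3.65.

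The ligands of CXCR3, which draws in activated T cells, also rose. Cxcl9 went from 0.470, 1.83 and 5.49 CPM to 2.79, 14.6 and 41.02 CPM (2.80 ± 0.61 SE, adjusted p = 0.00388), with overlap, and Cxcl10 changed by 1.57 ± 0.48 SE, adjusted p = 0.0299. Ccl2, the main monocyte chemokine, depended on 1 library: its change was 1.07 ± 1.14 SE, adjusted p = 0.584 with all libraries and 4.92 (adjusted p = 0.000364) without the library labelled d3_KO_345, which held 12.1 CPM against a median of 0.108 CPM. The adjusted p of Cxcl1 was 0.0912 with all libraries and 0.0134 without it. Ccl28, which attracts IgA-secreting cells, fell from 103, 136 and 179 CPM to 83.1, 98.6 and 142 CPM (-0.41 ± 0.14 SE, adjusted p = 0.0421). Ccl25, Cx3cl1 and Ccl20 did not pass, with changes of -0.05, 0.02 and 0.34.

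Il1a and Il1b, both of the interleukin 1 family, were among the cytokine genes that rose. Of 30 genes in the cytokine list 22 were tested, and of these 13 rose and 0 fell (median 1.84). As in the neutrophil list, members near 0 on day 3 can reach the filter mainly through day 7 libraries, which favours rises among the genes tested. Il1b, a cytokine activated by inflammasomes, stood at 2.80, 3.63 and 50.5 CPM on day 3 and at 34.0, 91.6 and 231 CPM on day 7. The change was 3.47 ± 0.73 SE, adjusted p = 0.00293, and 4.85 (adjusted p = 9.37e-06) without the library labelled d3_KO_345, which held the day 3 maximum. Il1a changed by 4.95 ± 0.83 SE, adjusted p = 0.000532, and the decoy receptor Il1r2, which neutrophils express, by 4.46 ± 0.997 SE, adjusted p = 0.00451. Il1rn, the receptor antagonist, differed by -0.37 and did not pass (adjusted p = 0.478), and Il18, made by epithelium itself, differed by -0.05 (adjusted p = 0.881). Without the library labelled d3_KO_345, 14 of 20 cytokine genes rose.

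Other cytokines that rose were Osm, Tnf and Il33. Osm, which encodes oncostatin M, changed by 3.81 ± 0.95 SE, adjusted p = 0.00889, and Osmr, a chain of the oncostatin M receptor, by 2.91 ± 0.55 SE, adjusted p = 0.00132. Tnf went from 7.90, 11.2 and 28.4 CPM to 16.2, 39.8 and 108 CPM (1.89 ± 0.37 SE, adjusted p = 0.00178), and Il33, an alarmin, from 0.775, 1.90 and 5.63 CPM to 3.03, 8.90 and 34.0 CPM (2.37 ± 0.50 SE, adjusted p = 0.00311). Ifng, the gene of interferon gamma, was low throughout at 0.0470, 0.120 and 0.237 CPM and 0.240, 0.712 and 1.35 CPM, with separate ranges, and rose by 2.55 ± 0.45 SE, adjusted p = 0.000742. It did not reach the filter on low counts without the library labelled d3_KO_345. Il22 and Il17a, cytokines that induce antimicrobial genes in epithelium, were too low to be tested, with day 7 maxima of 0.501 and 0.207 CPM.

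Of 27 genes of feedback and signalling downstream of STAT3 and NF-kB, 10 rose and 1 fell, against 10.5% and 8.83% of all genes tested. Their median was 0.25, and 12 rose and 2 fell without the library labelled d3_KO_345. Without d3_KO_349 or d7_KO_368, 7 of them changed. Socs3, an inhibitor of STAT3 signalling, went from 29.9, 48.8 and 92.5 CPM to 99.5, 115 and 218 CPM with separate ranges (1.39 ± 0.27 SE, adjusted p = 0.00147). Pim1, a kinase induced by STAT3, changed by 1.13 ± 0.18 SE, adjusted p = 0.000293, and Icam1, a leukocyte adhesion molecule, by 1.51 ± 0.23 SE, adjusted p = 0.000235. The immediate early gene Junb fell (-0.62 ± 0.19 SE, adjusted p = 0.0308).

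Genes of MHC class II, by which cells present peptides to CD4 T cells, rose with little overlap between the days. Of 9 tested, 8 rose, against 10.5% of all genes tested, with a median log2 fold change of 2.11. The median was 2.22 without the library labelled d3_KO_345, where 8 rose as well. With all libraries 7 lay wholly higher on day 7, against 2.63% of all genes tested. The invariant chain Cd74 stood at 22.2, 49.5 and 107 CPM on day 3 and at 171, 249 and 583 CPM on day 7 (2.44 ± 0.38 SE, adjusted p = 0.000323). The classical chains H2-Aa (2.24 ± 0.34 SE, adjusted p = 0.000236), H2-Ab1 (2.14) and H2-Eb1 (2.17) rose by like amounts. H2-Aa had 8.28, 14.4 and 35.0 CPM and then 48.0, 77.6 and 134 CPM. The peptide-loading chains H2-DMa and H2-DMb1 rose by 1.83 and 2.06. Ciita, the transactivator of these genes, went from 1.32, 3.25 and 6.30 CPM to 5.29, 15.1 and 24.3 CPM (2.06 ± 0.38 SE, adjusted p = 0.00102), with overlap. The protease Ctss did not pass (0.29 ± 0.11 SE, adjusted p = 0.0763). Epithelium, macrophages and B cells can all express these genes. Markers of the latter cell types moved in the same libraries, as given above, and their part in the rise was not tested.

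MHC class I and its peptide-processing machinery rose in 16 of 17 genes, by a median of 0.67, and in all 17 without the library labelled d3_KO_345. B2m, the light chain of every class I molecule, stood at 238, 307 and 362 CPM on day 3 and 463, 649.9 and 844 CPM on day 7 with separate ranges (1.07 ± 0.13 SE, adjusted p = 6.59e-05). Nlrc5, the transactivator of class I genes, went from 2.80, 5.29 and 9.33 CPM to 10.9, 24.4 and 31.2 CPM, also without overlap (1.92 ± 0.31 SE, adjusted p = 0.000409). The peptide transporter Tap1 changed by 1.38 ± 0.25 SE, adjusted p = 0.000874, and the immunoproteasome subunits Psmb8 and Psmb9 by 1.19 and 1.11. Among the classical heavy chains, H2-K1 rose by 0.42 ± 0.10 SE, adjusted p = 0.00817, and H2-D1 by 0.63 ± 0.13 SE, adjusted p = 0.00334. Genes H2-Q6 and H2-Q7 are near-identical copies, so their separate values are uncertain.

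Interferon response genes rose in 18 of 30, all 30 having a positive log2 fold change, with a median of 0.97, and in 19 without the library labelled d3_KO_345. Gbp5, a guanylate-binding protein of antimicrobial defence, stood at 0.459, 0.811 and 2.91 CPM on day 3 and at 2.09, 10.4 and 25.8 CPM on day 7, a change of 3.25 ± 0.55 SE, adjusted p = 0.000576. Ifit2, an antiviral protein that binds RNA, went from 1.15, 9.30 and 14.5 CPM to 17.9, 37.2 and 125 CPM with separate ranges (2.75 ± 0.51 SE, adjusted p = 0.00113). Members that answer to interferon gamma, such as Iigp1 (2.41), Ifi47 (1.90), Igtp (1.71) and Irgm1 (0.99), rose. Of those known mainly from type I interferon, Ifit2 (2.75), Isg15 (1.05), Usp18 (1.57) and Oasl2 (1.07) rose, whereas Irf7 (0.07), Mx1 (0.18), Oas1a (0.06) and Rsad2 (0.04) did not pass. The genes named are a part of the 30, and a difference between the kinds of interferon was not tested. The transcription factors Irf1 and Irf8 rose by 0.51 and 0.81. The counts were unequal between the ranges of animal numbers, as they were over all genes: within the lower-numbered animals without the library labelled d3_KO_345, 24 genes rose against 17.3% of all genes (median 1.68), and within the higher-numbered animals, 4 rose against 4.85% of all genes (median 0.77). Libraries d3_KO_349, d3_KO_350 and d3_KO_351 had the lowest mean level of the list of all 15 KO libraries.

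Promoters of 5 genes that rose are shown because they hold motifs of factors known to act on interferon, MHC and chemokine genes. Each is the 250 bases before the gene start in RefSeq, GRCm38.p6, 5′ to 3′ on the strand of the gene, with matches in capitals. The motifs searched on both strands were TTTC and TTTC with any 2 bases between (like the interferon-stimulated response element), TTCNNNGAA (like the gamma-activated site), CTGATTGG (the Y box of MHC promoters) and GGGA and TTCC with any 2 bases between (like an NF-kB site). The windows are Gbp5 at chr3:142496684-142496933 (plus strand), B2m at chr2:122147437-122147686 (plus), H2-Aa at chr17:34287824-34288073 (minus), H2-Eb1 at chr17:34305617-34305866 (plus) and Cxcl2 at chr5:90903649-90903898 (plus).
Gbp5: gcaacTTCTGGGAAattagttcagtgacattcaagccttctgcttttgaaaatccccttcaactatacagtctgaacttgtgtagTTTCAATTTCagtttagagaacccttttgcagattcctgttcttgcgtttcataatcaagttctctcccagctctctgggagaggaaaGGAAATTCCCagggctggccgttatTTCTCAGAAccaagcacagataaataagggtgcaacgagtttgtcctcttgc
B2m: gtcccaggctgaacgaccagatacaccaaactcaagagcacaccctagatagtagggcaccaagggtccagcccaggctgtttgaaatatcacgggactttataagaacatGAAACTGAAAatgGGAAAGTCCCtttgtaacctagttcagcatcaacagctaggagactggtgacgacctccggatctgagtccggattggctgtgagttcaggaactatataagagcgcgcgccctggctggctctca
H2-Aa: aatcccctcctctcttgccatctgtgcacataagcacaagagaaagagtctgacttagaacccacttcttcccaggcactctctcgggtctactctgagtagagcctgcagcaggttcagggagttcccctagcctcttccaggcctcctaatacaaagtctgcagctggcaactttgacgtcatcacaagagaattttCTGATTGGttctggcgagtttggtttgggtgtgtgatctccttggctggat
H2-Eb1: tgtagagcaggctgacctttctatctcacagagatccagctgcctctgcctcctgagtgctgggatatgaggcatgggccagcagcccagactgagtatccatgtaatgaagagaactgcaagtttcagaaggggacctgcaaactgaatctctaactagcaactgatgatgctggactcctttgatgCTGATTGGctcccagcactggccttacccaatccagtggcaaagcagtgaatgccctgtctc
Cxcl2: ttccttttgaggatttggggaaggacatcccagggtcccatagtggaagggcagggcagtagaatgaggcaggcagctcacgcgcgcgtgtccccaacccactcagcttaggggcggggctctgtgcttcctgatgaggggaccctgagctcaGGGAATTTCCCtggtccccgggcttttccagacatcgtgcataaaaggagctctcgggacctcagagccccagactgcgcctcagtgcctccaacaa

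In Gbp5 the capitals mark, from the 5′ end, a gamma-activated-like match 245 bases before the start, a response-element-like match 165 bases before it, an NF-kB-like match at 77 bases and another gamma-activated-like match at 52 bases. In B2m they mark a response-element-like match at 139 bases and an NF-kB-like match at 126 bases. H2-Aa and H2-Eb1 each show a Y box, at 51 and 62 bases. In Cxcl2 an NF-kB-like match at 97 bases overlaps a match on the other strand. The response-element-like motif was in 14 of the 23 interferon response genes that have a promoter in the table (60.9%), in 7.21% of genes that rose, in 2.07% of genes that fell and in 3.46% of all 27025 promoters. The gamma-activated-like motif was in 8 of the 23 (34.8%), in 10.9% of genes that rose, in 7.24% of genes that fell and in 8.13% of all promoters. The Y box was in 2 of 6 MHC class II genes (33.3%), 6 of 15 class I genes (40%) and 4.43% of all promoters, and it was less frequent in genes that rose (4.16%) than in genes that fell (5.48%) or in all genes tested (5.96%). The NF-kB-like motif was in 4 of 18 chemokine genes (22.2%) and 1.36% of all promoters, with near-equal shares of genes that rose (2.46%) and fell (2.17%). These are matches of letters in 1 window and show no binding.

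**Figure D3:**
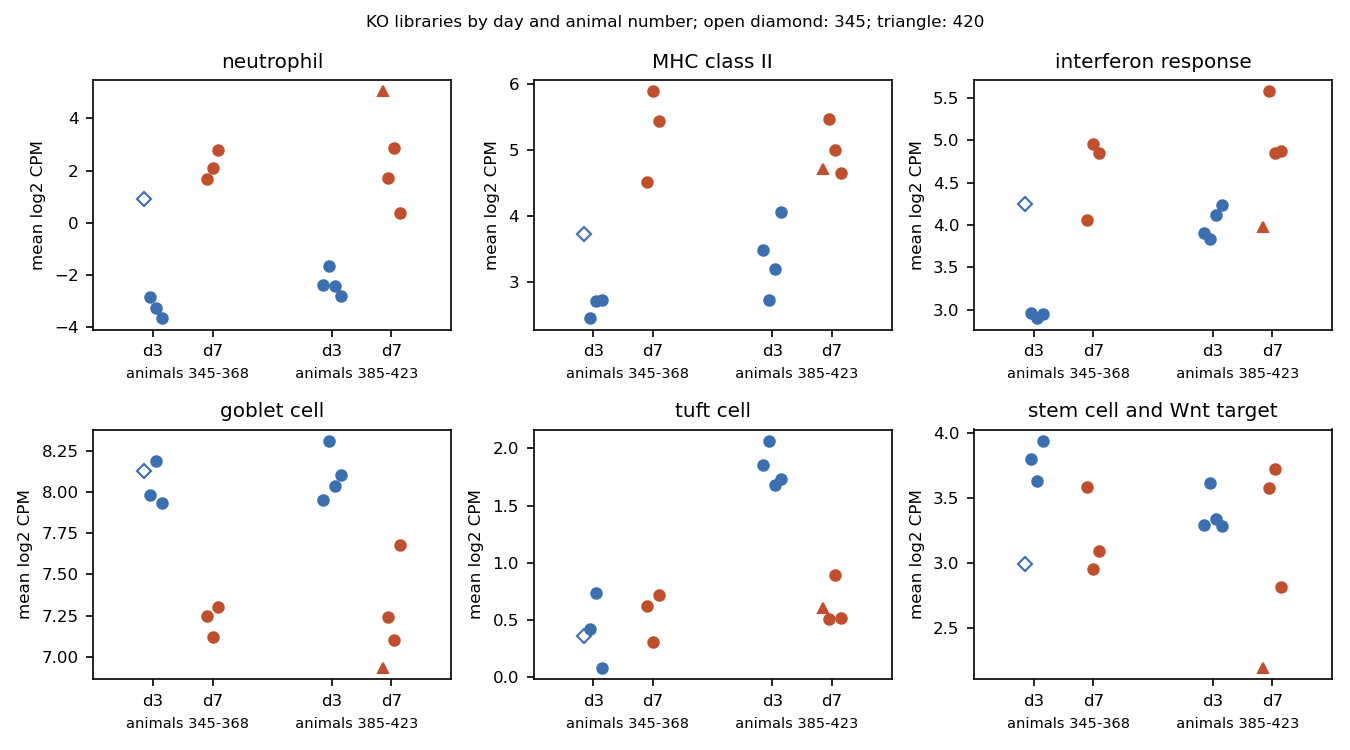
Mean log2 CPM over the genes of 6 lists in each KO library, by day (blue day 3, orange day 7) and by range of animal numbers. The open diamond is the library labelled d3_KO_345 and the triangle is d7_KO_420. Neutrophil, MHC class II and goblet cell lists differ by day in both ranges once the diamond is set aside, and the 4 day 3 libraries of the higher-numbered animals lie above all other KO libraries for the tuft cell list.

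The largest falls included secreted proteins, cytochromes P450 and a Hox gene. The 12 genes of the same rule were Mptx1, Itih2, Cyp2f2, Fut9, AI854703, Sycn, Ang4, Rims4, Hoxd13, Cyp2d12, Tgm3 and Sh3bgr, with log2 fold changes from -8.16 to -3.11. Mptx1 (chr1:174330518-174332873, plus strand), a mucosal pentraxin, stood at 279, 789 and 5609 CPM on day 3 and at 0.626, 2.63 and 18.8 CPM on day 7. The ranges were far apart, and the change was -8.16 ± 1.04 SE, adjusted p = 6.9e-05, with -8.31 (adjusted p = 4.1e-05) without the library labelled d3_KO_345. Itih2, a heavy chain that binds hyaluronan, went from 4.12, 8.55 and 19.1 CPM to 0.0204, 0.133 and 0.711 CPM (-5.58 ± 0.53 SE, adjusted p = 1.16e-05). Sycn, the secretory granule protein syncollin, went from 155, 319 and 455 CPM to 9.99, 15.3 and 39.3 CPM (-3.91 ± 0.35 SE, adjusted p = 8.58e-06), and Tgm3, a transglutaminase that crosslinks proteins, from 421.4, 706 and 1624 CPM to 6.35, 34.3 and 329.6 CPM (-3.32 ± 0.69 SE, adjusted p = 0.00262). In all 12 genes except Ang4 every day 7 library lay below every day 3 library. Ang4 stood at 12.03, 20.1 and 483 CPM on day 3, where 3 libraries (d3_KO_349, d3_KO_350 and d3_KO_392) held 184 to 483 CPM and the other 5 held 12.03 to 20.3 CPM, next to the day 7 range of 4.92 to 13.3 CPM (-3.68 ± 0.87 SE, adjusted p = 0.0066).

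Hoxd13, a homeobox gene of the distal hindgut, was among the 12, and the other posterior Hox genes were then examined, chosen after its values were seen. Of 8 such genes tested, 6 fell and 1 rose, against 8.83% and 10.5% of all genes tested. The 6 that fell had separate ranges, against 2.45% of all genes tested that lay wholly lower on day 7. The counts were the same without the library labelled d3_KO_345. The neighbours Hoxd13 (chr2:74668310-74671599), Hoxd12 (chr2:74675013-74677705), Hoxd11 (chr2:74679557-74687016) and Hoxd10 (chr2:74691924-74695105), all on the plus strand, changed by -3.54, -5.14, -3.71 and -3.98. Hoxd13 stood at 11.96, 21.8 and 60.7 CPM on day 3 and 0.506, 1.65 and 5.32 CPM on day 7. Hoxb13 (chr11:96194316-96197447, plus strand) went from 63.0, 159.6 and 261 CPM to 3.43, 22.6 and 54.8 CPM (-2.54 ± 0.44 SE, adjusted p = 0.000679). Hoxa13 fell by less (-1.01 ± 0.21 SE, adjusted p = 0.00272), Hoxa10 did not pass (-0.48 ± 0.20 SE, adjusted p = 0.11), and Hoxa11, which overlaps an annotated gene on the other strand, rose (0.93 ± 0.22 SE, adjusted p = 0.00694). The summed level of the 8 genes was 127 to 397 CPM on day 3 and 27.8 to 112 CPM on day 7. Small intestine markers rose in 1 of 11 genes, a share near the 10.5% of all genes tested, with a median of 0.77. The count was also 1 without the library labelled d3_KO_345 and up to 4 without d3_KO_387. The summed level of small intestine markers was 86.1 to 206 CPM on day 3 and 138 to 378 CPM on day 7. Their part in the fall of the Hox genes was not tested.

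Most goblet cell genes tested fell. Of 18 tested, 11 fell, against 8.83% of all genes tested, and 0 rose, the median log2 fold change was -0.65, and the summed level went from 11828, 17257 and 22354 CPM to 7168, 8564 and 11996 CPM. The count of falls was also 11 without the library labelled d3_KO_345. Clca1, a metalloprotease secreted with mucus, stood at 1217, 1848 and 6945 CPM on day 3 and 318, 394 and 633 CPM on day 7 (-2.66 ± 0.37 SE, adjusted p = 0.000133). Fcgbp, a structural mucus protein, went from 2277, 3655 and 6443 CPM to 934, 1587 and 1938 CPM (-1.39 ± 0.22 SE, adjusted p = 0.000394). Klk1, a kallikrein, went from 601, 711 and 933 CPM to 198, 330.2 and 468 CPM (-1.18 ± 0.15 SE, adjusted p = 6.63e-05). These 3 genes had separate ranges, as did Best2 (-1.96), Creb3l1 (-0.73) and the disulfide isomerase Agr2 (-0.62). The main gel-forming mucin Muc2 stood at 2934, 4378 and 8013 CPM and 2032, 3230.3 and 4959 CPM and did not pass (-0.48 ± 0.22 SE, adjusted p = 0.149). The goblet cell transcription factors Spdef (adjusted p = 0.0531) and Atoh1 (adjusted p = 0.246) did not pass either. Within the lower-numbered animals without the library labelled d3_KO_345, 11 goblet genes fell (17.1% of all genes). Within the higher-numbered animals 10 fell (2.8% of all genes).

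Some tuft cell genes fell, with values that differed by range of animal numbers. With all libraries 4 of 10 fell (median -0.66), against 8.83% of all genes tested, and 6 fell without the library labelled d3_KO_345. The number was 1 without d7_KO_367 and 2 without d3_KO_385, d3_KO_387, d3_KO_388 or d3_KO_392. Dclk1, a kinase that marks tuft cells, stood at 2.62, 12.6 and 32.6 CPM on day 3 and 2.96, 4.85 and 6.03 CPM on day 7 (-1.72 ± 0.53 SE, adjusted p = 0.0323). The 4 day 3 libraries of the higher-numbered animals held 21.1 to 32.6 CPM and the other 4 held 2.62 to 4.20 CPM, close to the day 7 range. Within the higher-numbered animals Dclk1 changed by -2.52 (adjusted p = 0.00135), and within the lower-numbered animals without the library labelled d3_KO_345 by 0.40 (adjusted p = 0.285). The tuft cell factor Pou2f3 and the channel Trpm5 changed by -1.596 and -1.62 in the former and by -0.44 and -0.27 in the latter, where they did not pass. The difference between the ranges was not itself tested. Among enteroendocrine genes, Insl5, a hormone of the distal colon, fell (-1.58 ± 0.30 SE, adjusted p = 0.00136), Scg2 fell (-1.09 ± 0.27 SE, adjusted p = 0.00967) and Tac1, which encodes substance P, rose (1.63 ± 0.32 SE, adjusted p = 0.00202), while the other 12 of 15 did not pass. The counts were the same without the library labelled d3_KO_345. In the lower-numbered animals without it, 1 of the 15 rose and 4 fell (17.3% and 17.1% of all genes). Within the higher-numbered animals 3 rose and 0 fell (4.85% and 2.8% of all genes).

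Among transporters of the colonocyte, falls exceeded the share over all genes tested and rises did not. Of 33 genes of water and ion transport, 8 fell, against 8.83% of all genes tested, and 3 rose, a share near the 10.5% of all genes. The median was 0.03, and the counts were the same without the library labelled d3_KO_345. Aqp8, a water channel of surface colonocytes, stood at 82.6, 226 and 440.0 CPM on day 3 and 36.4, 57.6 and 136 CPM on day 7 (-1.77 ± 0.35 SE, adjusted p = 0.00192). The chloride-bicarbonate exchanger Slc26a3 went from 323, 530.3 and 849 CPM to 217, 274 and 364 CPM (-0.97 ± 0.17 SE, adjusted p = 0.000701). Scnn1a, a subunit of the epithelial sodium channel, went from 93.2, 116 and 153 CPM to 49.5, 62.1 and 86.0 CPM without overlap (-0.91 ± 0.12 SE, adjusted p = 0.000114), and the mineralocorticoid receptor Nr3c2 also fell (-0.38). Guca2b, which encodes uroguanylin, rose (0.74 ± 0.13 SE, adjusted p = 0.00083), as did its receptor Gucy2c (0.31 ± 0.08 SE, adjusted p = 0.00868). The butyrate transporters Slc5a8 and Slc16a1 fell (-0.53 and -0.45), and the bile acid exporter chains Slc51a and Slc51b rose (1.20 and 1.38). Of 28 genes of mature colonocytes and the brush border, 5 rose and 5 fell, against 10.5% and 8.83% of all genes tested, and 7 rose and 5 fell without the library labelled d3_KO_345. Car1, an abundant colonocyte enzyme, differed by 0.35 ± 0.22 SE, adjusted p = 0.31, and of 17 tight junction genes 1 rose and 1 fell, with or without that library.

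Of 42 detoxification genes 8 fell, against 8.83% of all genes tested, and 5 rose, a share near the 10.5% of all genes. The counts were the same without the library labelled d3_KO_345. Cyp2f2 and Cyp2d12, both cytochromes P450, were among the 12 genes with the largest falls. Cyp2f2 stood at 4.97, 12.9 and 32.1 CPM on day 3 and 0.265, 0.361 and 0.501 CPM on day 7 (-5.31 ± 0.42 SE, adjusted p = 3.87e-06). Adh1, an alcohol dehydrogenase that also oxidises retinol, went from 246, 522 and 868 CPM to 49.6, 95.8 and 214 CPM (-2.25 ± 0.32 SE, adjusted p = 0.000164). The carboxylesterase Ces2g and the monoamine oxidase Maob fell (-1.40 and -1.26), and the bilirubin transferase Ugt1a1 rose (1.14 ± 0.24 SE, adjusted p = 0.00297).

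**Figure D4:**
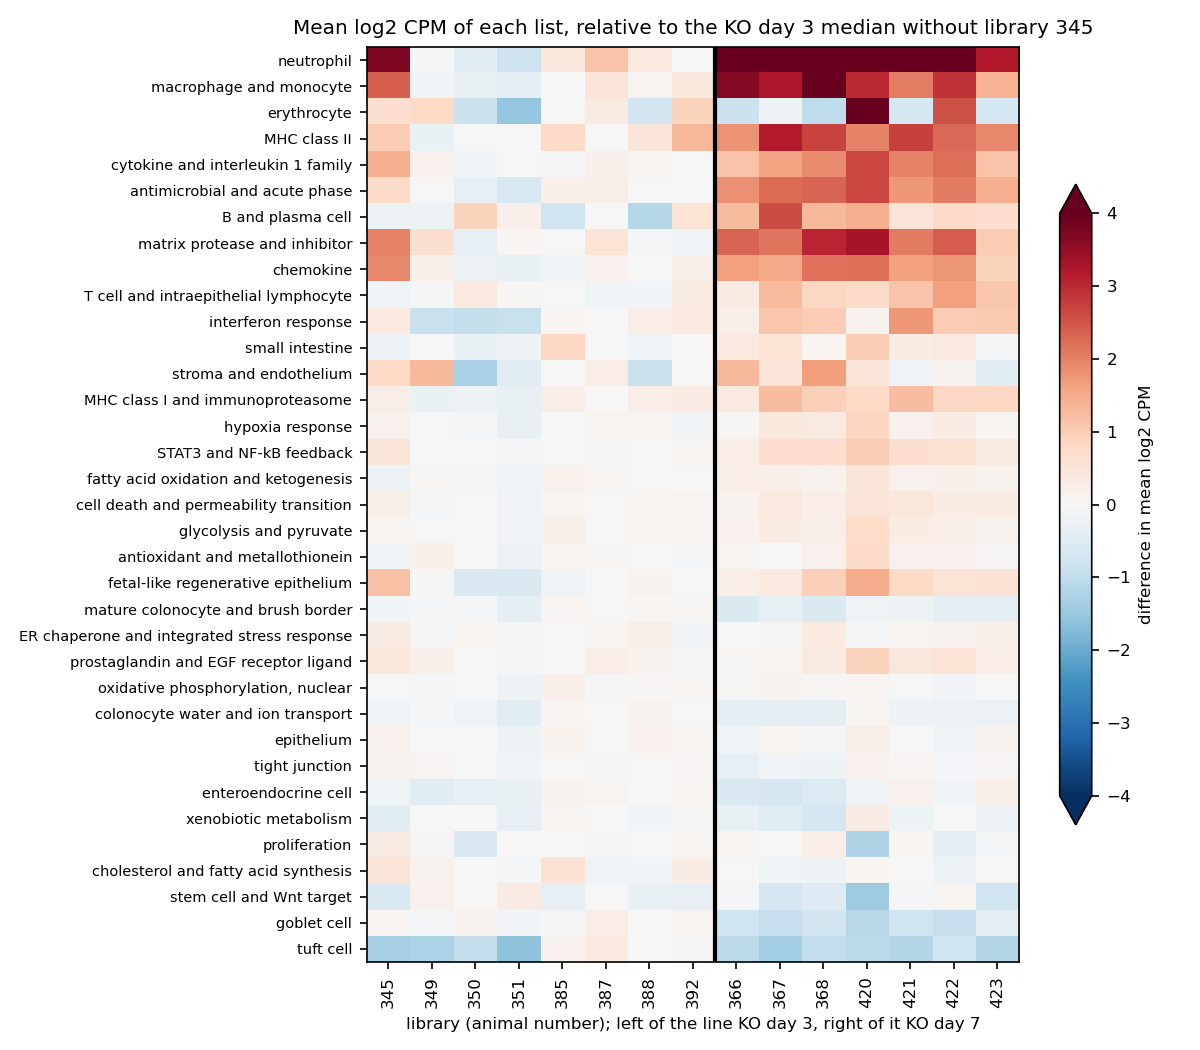
Difference in mean log2 CPM of each list between every KO library and the median of the KO day 3 libraries without the library labelled d3_KO_345, from blue (lower) to red (higher), with colours saturated at 4. Columns are libraries by animal number, day 3 on the left of the line and day 7 on its right. Neutrophil and macrophage lists are redder in the 7 day 7 columns and in the column of the library labelled d3_KO_345 than in the other day 3 columns, and the erythrocyte list is reddest in the column of d7_KO_420.

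Cycling genes changed in few members, and some stem cell and Wnt target genes fell. Of 19 stem cell and Wnt target genes, 1 rose and 3 fell, against 10.5% and 8.83% of all genes tested. Their median was -0.50, and 5 fell without the library labelled d3_KO_345. Only 2 of the list changed when any of d3_KO_349, d3_KO_350, d3_KO_351, d3_KO_385, d7_KO_367, d7_KO_368, d7_KO_420 and d7_KO_423 was left out. Sox9, a crypt transcription factor, stood at 63.9, 89.9 and 139 CPM on day 3 and 21.2, 44.7 and 66.1 CPM on day 7 (-1.07 ± 0.20 SE, adjusted p = 0.00137). Ephb3 and Znrf3, both Wnt targets, fell (-0.76 and -0.58). The stem cell marker Lgr5 stood at 2.79, 5.34 and 13.6 CPM and 0.156, 3.67 and 9.63 CPM, with wide spread on day 7, and did not pass (-0.59 ± 0.55 SE, adjusted p = 0.528), nor did Axin2 (-0.73 ± 0.47 SE, adjusted p = 0.323). Of 36 proliferation genes, 1 rose (Ccnd1, 0.85) and 1 fell (Plk1, -0.55), and Mki67 differed by -0.25 ± 0.19 SE, adjusted p = 0.428. The same counts of proliferation genes held without the library labelled d3_KO_345. Their direction differed between the ranges, which was not tested. Within the lower-numbered animals without the library labelled d3_KO_345, 32 of 36 had a positive log2 fold change (4 rose against 17.3% of all genes, median 0.25). Within the higher-numbered animals 2 of 36 did (0 rose against 4.85% of all genes, median -0.36). Single libraries weigh on these counts. The mean log2 CPM of the proliferation list was 3.61 in d7_KO_420 (other day 7 libraries 4.44 to 5.07) and 4.24 in d3_KO_350 (other day 3 libraries 4.77 to 5.16). Over both ranges without d7_KO_420 and the library labelled d3_KO_345, 21 of 36 were positive (median 0.04). Genes of the list are not independent of each other. Stem cell calls by range were also unequal: in the lower-numbered animals without the library labelled d3_KO_345, 10 of 20 stem cell and Wnt genes fell against 17.1% of all genes (median -0.82), and within the higher-numbered animals 1 fell against 2.8% of all genes (median -0.26).

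Matrix proteases were among the genes with large rises. Of 22 genes tested, 10 rose and 1 fell (median 1.43), and 14 rose without the library labelled d3_KO_345. Mmp10, a stromelysin made by wound-edge epithelium, was at 0, 0.0103 and 0.174 CPM on day 3 and 0.324, 2.74 and 5.89 CPM on day 7 (6.48 ± 0.77 SE, adjusted p = 4.18e-05). Mmp13, a collagenase, went from 0, 0.280 and 0.504 CPM to 0.769, 5.95 and 18.4 CPM (4.47 ± 0.66 SE, adjusted p = 0.000192), and Mmp7, the epithelial matrilysin, from 0.591, 0.893 and 1.47 CPM to 1.55, 2.58 and 5.78 CPM (1.56 ± 0.28 SE, adjusted p = 0.000917). All 3 had separate ranges. The inhibitor Timp3 fell (-1.57 ± 0.43 SE, adjusted p = 0.0157). Plat, the tissue plasminogen activator, rose (3.08 ± 0.66 SE, adjusted p = 0.00347).

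Genes of the fetal-like state, which epithelium can enter during repair, rose in 5 of 27, against 10.5% of all genes tested, with a median of 0.14. Without the library labelled d3_KO_345, 8 rose, and in all 3 of the list changed without d7_KO_367 or d7_KO_368. Ly6a, the surface antigen Sca-1, stood at 38.1, 191 and 544 CPM on day 3 and 273, 595 and 677 CPM on day 7. The library labelled d3_KO_345 held 544 CPM, inside the day 7 range, and the change was 1.41 ± 0.45 SE, adjusted p = 0.0373, or 1.85 (adjusted p = 0.00278) without it. Its relative Ly6c1, which endothelium and leukocytes also express, changed by 2.78 ± 0.76 SE, adjusted p = 0.0159. Anxa1 did not pass (0.29 ± 0.30 SE, adjusted p = 0.583). Ptgs2, the inducible enzyme of prostaglandin synthesis, went from 0.564, 0.824 and 16.4 CPM to 9.996, 28.3 and 144 CPM (4.12 ± 0.87 SE, adjusted p = 0.00303) and by 5.79 (adjusted p = 2.99e-05) without that library, and Ptges, which makes prostaglandin E2, changed by 1.01 ± 0.29 SE, adjusted p = 0.0203. The prostaglandin E2 receptors Ptger3 and Ptger4 fell (-0.86 and -0.54) and Ptger2, found on leukocytes too, rose (2.13).

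The other hexokinases and glycolysis were followed because Hk2 is the gene targeted. Hk1, the most widely expressed hexokinase, stood at 215, 259 and 339 CPM on day 3 and 204, 265 and 365 CPM on day 7, with no change that passed (0.01 ± 0.12 SE, adjusted p = 0.982). Hk3, a hexokinase of myeloid cells, was at 0.0765, 0.134 and 1.55 CPM and then 0.971, 4.12 and 8.32 CPM (3.74 ± 0.65 SE, adjusted p = 0.000702). Per length, Hk1 had a mean of 31.97 ± 5.76 RPKM (counts per kilobase per M counts; SD, n = 7) on day 7, Hk2 23.3 ± 11.8 RPKM and Hk3 1.22 ± 0.680 RPKM. Hk3 therefore stayed far below the other hexokinases, and the means of Hk1 and Hk2 differed by less than the SD of Hk2.

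Of 39 genes of glycolysis and pyruvate, 8 rose and 5 fell, against 10.5% and 8.83% of all genes tested, with a median of 0.19. Pfkfb3, which makes the activator of phosphofructokinase, went from 2.37, 3.04 and 8.36 CPM to 8.17, 16.9 and 34.3 CPM (2.27 ± 0.33 SE, adjusted p = 0.00018). The lactate exporter Slc16a3 changed by 2.35 ± 0.35 SE, adjusted p = 0.000227 and the glucose transporter Slc2a3 by 3.06 ± 0.54 SE, adjusted p = 0.000855, both of which leukocytes express as well. Pfkp, the platelet-type phosphofructokinase, stood at 123, 167 and 208 CPM and 221, 245 and 359 CPM, with separate ranges (0.61 ± 0.12 SE, adjusted p = 0.00153). Eno3, the muscle-type enolase, fell from 52.3, 91.8 and 134 CPM to 6.35, 8.23 and 34.1 CPM (-2.96 ± 0.37 SE, adjusted p = 6.63e-05). The main colonic glucose transporter Slc2a1 and Ldha did not pass (0.20 and 0.22). Of 20 hypoxia response genes 5 rose and 0 fell, against 10.5% and 8.83% of all genes tested. The hypoxia counts were 4 and 1 without the library labelled d3_KO_345 and 3 in all without d3_KO_349, d3_KO_350, d3_KO_388 or d7_KO_422. The glycolysis counts without the library labelled d3_KO_345 were also 8 higher and 5 lower.

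More genes of fatty acid oxidation rose than fell, by small amounts. Of 37 genes of fatty acid oxidation and ketogenesis, 19 rose and 2 fell, and the median change was 0.24, with 18 and 2 without the library labelled d3_KO_345. Acadl, an acyl-CoA dehydrogenase, went from 153, 201 and 240.2 CPM to 255, 302 and 459.8 CPM (0.72 ± 0.12 SE, adjusted p = 0.000663), and Hadha from 296, 327 and 365.6 CPM to 389.7, 409 and 471 CPM (0.35 ± 0.06 SE, adjusted p = 0.000737). Both genes had separate ranges, as did the transcription factor Ppara (0.49). The coactivator Ppargc1a fell (-0.84 ± 0.22 SE, adjusted p = 0.0114). Within the lower-numbered animals without the library labelled d3_KO_345, 15 genes of the list rose against 17.3% of all genes, and within the higher-numbered animals 2 rose against 4.85%, while the medians lay close together at 0.22 and 0.20. Of 76 nuclear genes of oxidative phosphorylation, 0 rose and 1 fell (median 0.03). Within the lower-numbered animals without that library, 21 rose against 17.3% of all genes (median 0.16). Within the higher-numbered animals 0 rose against 4.85% (median -0.05). Of 27 genes of cholesterol and fatty acid synthesis 4 fell and 0 rose, with or without that library.

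Cell death genes, which the series title names, changed in 13 members upward and 3 downward of 48, against 10.5% and 8.83% of all genes tested. Ppif (chr14:25694154-25700468, plus strand) encodes cyclophilin D, a regulator of the mitochondrial permeability transition. It stood at 107, 125 and 141 CPM on day 3 and 96.7, 106 and 129 CPM on day 7, with overlap. The change was -0.21 ± 0.08 SE, adjusted p = 0.0596, just outside the threshold, and -0.23 (adjusted p = 0.0488) without the library labelled d3_KO_345. Vdac1, the outer membrane channel to which hexokinase 2 binds, differed by -0.03 ± 0.07 SE, adjusted p = 0.851. Ripk3 and its substrate Mlkl, which carry out necroptosis, rose: Ripk3 went from 20.6, 40.6 and 71.8 CPM to 57.8, 100.1 and 105 CPM (1.08 ± 0.24 SE, adjusted p = 0.00452) and Mlkl changed by 0.55 ± 0.16 SE, adjusted p = 0.0216. The pore-forming gasdermin Gsdmd rose (0.54 ± 0.14 SE, adjusted p = 0.0126). The gasdermins Gsdmc2, Gsdmc3 and Gsdmc4, close copies whose separate values are uncertain, fell (-0.77, -1.15 and -1.12). Casp12 rose from 1.13, 1.67 and 2.14 CPM to 3.30, 6.001 and 9.18 CPM without overlap (1.87 ± 0.21 SE, adjusted p = 2.84e-05), and the inflammasome sensor Nlrp3, typical of myeloid cells, changed by 3.03 ± 0.80 SE, adjusted p = 0.0135. Casp8 did not pass with all libraries (0.47 ± 0.17 SE, adjusted p = 0.0692). Without the library labelled d3_KO_345, 16 genes of the list rose and 4 fell.

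The same contrast in WT mice gave 3002 of 15541 genes (19.3%), 1650 higher (10.6%) and 1352 lower (8.7%). Whether KO and WT changed differently was tested as an interaction over all 29 libraries of both days, and 0 of 16371 genes passed (0%), with 440 genes at an unadjusted p under 0.05. DESeq2's Wald test also gave 0, with 713 of 30369 genes at an unadjusted p under 0.05. Without the library labelled d3_KO_345 edgeR's test gave 0, with 408 of 16331 genes. If no gene differed, that threshold would pass a share of about 0.05 of genes tested, and these counts lie below it. Without d7_KO_420 no gene passed either, but 1333 of 16500 genes had an unadjusted p under 0.05, above that share. The numbers were 759 of 16525 without d3_WT_381 and 741 of 16478 without d7_WT_370, both below it. List counts that differ between the genotypes are therefore not shown to differ. Interferon response genes rose in 18 of 30 in KO (median 0.97) and in 5 in WT (median 0.41). Fatty acid oxidation genes rose in 19 in KO and 6 in WT, and goblet cell genes fell in 11 and 7. Stem cell and Wnt target genes fell in 3 in KO and 7 in WT. Counts of other lists were closer: neutrophil genes rose in 16 in KO and 16 in WT, MHC class II genes in 8 and 7, and antimicrobial genes in 19 and 21. Of the posterior Hox genes 6 fell in KO and 6 in WT.

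Since no gene passed, the pair of genes with the smallest p in each direction is given. Unc93b1, which traffics nucleic acid-sensing Toll-like receptors, stood in KO at 40.2, 42.7 and 46.1 CPM on day 3 and 56.2, 60.3 and 72.3 CPM on day 7, with separate ranges. By edgeR it rose by 0.53 ± 0.06 SE, adjusted p = 3.12e-05, in KO. In WT it differed by 0.13, and the unadjusted interaction p from edgeR was 0.000137. Sh3bp1 rose by 0.64 ± 0.14 SE, adjusted p = 0.00325 in KO and differed by -0.13 in WT (unadjusted p = 0.00145). Jchain, the joining chain of secreted IgA, stood in KO at 0.455, 0.882 and 3.17 CPM and 0.736, 1.36 and 2.84 CPM, did not pass in KO (0.55 ± 0.39 SE, adjusted p = 0.381) and rose by 3.16 in WT (unadjusted p = 0.000164). Igha, the IgA heavy chain, showed 0.77 in KO, which did not pass, and a rise of 3.07 in WT (unadjusted p = 0.000339). Hk2 itself differed by -0.08 in KO and rose by 0.92 in WT, with an unadjusted interaction p of 0.0457, or 0.169 without the library labelled d3_KO_345. For these genes the adjusted interaction p from edgeR was 1.

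Of the genes named, 52 of 205 overlap an annotated gene on the other strand somewhere in their whole span, introns included. Counting ignored strand, so reads of the partner may affect their counts where exons overlap, which was not examined. Hk2, Hk1, Hk3, Il1a, Il1b, Dmbt1, Tap1, B2m, Ciita, Sycn, Tgm3, Cyp2f2, Fcgbp, Klk1 and Adh1 are among the 52. Of 160 named genes that passed, 14 lost the call when some single library was left out, among them Cxcl10, Isg15 and Oasl2 among the genes that rose and Dclk1, Ccl28, Ephb3 and Gsdmc2 among those that fell.

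Of the 160 named genes that passed with all KO libraries, 158 were also tested without the library labelled d3_KO_345, and all of these passed there in the same direction. The other 2, Ifng and Ptger2, did not reach the filter on low counts. Among the 160, the log2 fold change moved by more than a factor of 1.5 in the fold for 22 genes without that library, to Ccl3 5.17, Chil3 9.33, Cxcl2 5.96, Fpr1 6.85, Fpr2 6.56, Hk3 4.91, Hp 6.80, Il1a 5.78, Il1b 4.85, Il1r2 6.09, Lcn2 8.27, Lrg1 5.90, Ly6c1 3.93, Mmp8 9.26, Nlrp3 4.82, Osm 5.85, Osmr 3.67, Ptgs2 5.79, Retnlg 8.93, S100a8 9.62, S100a9 9.05 and Slpi 3.02. It did so for 15 genes without d7_KO_420, to Ccl3 3.21, Ccl4 2.94, Chil3 4.66, Cxcl2 2.62, Hp 4.18, Il1r2 2.78, Lcn2 4.85, Mmp8 5.81, Osm 2.81, Plat 2.25, Retnlg 5.37, S100a8 5.13, S100a9 4.86, Saa3 4.62 and Slc2a3 2.10, and the adjusted p from edgeR was then at most 0.0403. Without d7_KO_421 it became Hoxd12 -6.38, Itih2 -6.33, Mptx1 -8.97 and Tgm3 -4.32, without d3_KO_350 Ang4 -2.98 and Mptx1 -7.43, and without d3_KO_387 Mmp10 7.61. Fitted values of genes near 0 on day 3 depend on the prior count and are no bounds.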

How the data were processed

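The authors deposited counts per gene, 1 featureCounts file for each of 2 lanes of a library. Per the file headers these are unnormalised counts of read pairs made with featureCounts 1.6.2 without regard to strand. The submitters' processing notes name Trim Galore, STAR, featureCounts 1.5.2 and GRCm38, and the aligner's version and the annotation release are not given in the sources used here. The 2 lanes of each library were summed. Gene names, coordinates and strands came from the deposited count files, and gene types such as protein-coding from GENCODE M21 on GRCm38. Libraries of day 0 were not used here, being of another library series.

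The test was edgeR 4.0.16's quasi-likelihood test (R 4.3.3, limma 3.58.1) on TMM-scaled counts of genes kept by filterByExpr, with Benjamini-Hochberg adjusted p under 0.05, fitted on the KO libraries alone, and on all 29 libraries of days 3 and 7 for the interaction. Total counts per KO library were 27.6 to 60.6 M, and 3 counts, the limit that a count of 0 allows, correspond to 0.0495 to 0.109 CPM, counting error only. On counts simulated for the 15568 genes of the KO comparison, of which 15413 passed the filter again, 78% of genes changed 2-fold and 93.9% of those changed 4-fold were recovered, with 3 false calls. Log2 CPM used a prior count of 2. No pair of libraries held identical values. The alternatives were DESeq2 1.42.0 (its size factors or Wald test), other filters, 1 lane alone, robust fitting, removal of mitochondrial-genome and immunoglobulin genes, a 2-fold rule, the animal number range as a covariate, a prior count of 0.5 and leaving out libraries. Fits within a range, without the library labelled d3_KO_345 and another, and the Wald test without the former were added after seeing the data, as was the list of 8 Hox genes.

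Named genes were Hk2 and Ppif, up to 12 protein-coding genes each way by log2 fold change that passed with and without the library labelled d3_KO_345 at a mean log2 CPM of at least 2, members of the gene lists (up to 4 called each way, and others whose role is described) and the 2 with the smallest interaction p each way. Some genes that this rule names are not reported here. The members and the lists were chosen with earlier results of these data known. Promoter sequences came from a RefSeq table of GRCm38.p6.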

Additional observations from a re-analysis of the deposited data

Results flagged for a closer look

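Single libraries far from the rest of their group, by the gap to the nearest other library relative to the group's range, were found 60 times among 241 measures (the mean log2 CPM of a gene list or the log2 CPM of a named gene), each examined in KO day 3 and in KO day 7. Chance gives such a gap in about 1 in 20 groups, and genes of a list are not independent of it. Of the 60, 30 were in the library labelled d3_KO_345 and 17 in d7_KO_420. In parentheses after each value stands the range of the other libraries of its group. A log2 CPM of -4.47 is the value of a gene without reads. Where values lie at or near it, as for Camp, Mmp10 and Mmp13 on day 3, a gap can rest on few reads, and the stated rate need not hold.

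The library labelled d3_KO_345 stood apart in the mean log2 CPM of lists: neutrophil 0.91 (-3.65 to -1.67), macrophage and monocyte 2.82 (0.05 to 0.94), chemokine 2.25 (0.01 to 0.54), cytokine and interleukin 1 family 0.84 (-0.72 to -0.41), STAT3 and NF-kB feedback 5.32 (4.79 to 4.94), matrix protease and inhibitor 1.74 (-0.56 to 0.42) and fetal-like regenerative epithelium 5.28 (3.51 to 4.24). Among single genes its log2 CPM was Atoh1 4.26 (5.78 to 6.59), Ccl2 3.6 (-3.74 to -1.86), Ccl3 1.07 (-2.26 to -1.03), Ccl4 0.64 (-1.62 to -0.89), Ccr2 3.87 (-0.85 to 0.49), Chil3 2.1 (-4.47 to -2), Cxcl2 5.52 (0.34 to 1.29), Fpr1 -1 (-4.47 to -3.12) and Fpr2 -0.63 (-4.47 to -3.04). Further values of log2 CPM were Hk2 8.76 (6.12 to 7.02), Hk3 0.68 (-3.04 to -1.46), Hp 1.81 (-3.53 to -1.14), Il1a 1.47 (-2.1 to -0.57), Il1b 5.66 (1.51 to 2.66), Il1r2 2.19 (-2.16 to -0.94), Il1rn 8.51 (6.21 to 7.25), Mrc1 4.3 (0.55 to 1.35) and Nlrp3 2.97 (-2.16 to -0.46). Further values of log2 CPM were Pfkfb3 3.07 (1.27 to 1.78), Ptger2 -1.33 (-3.82 to -2.74), Ptgs2 4.04 (-0.72 to 0.89), Retnlg 0.22 (-4.47 to -3.12) and Selenbp1 8.7 (9.63 to 10.17).

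The day 7 library d7_KO_420 stood apart in the mean log2 CPM of lists: proliferation 3.61 (4.44 to 5.07), colonocyte water and ion transport 6.86 (6.37 to 6.56), fatty acid oxidation and ketogenesis 6.77 (6.42 to 6.55), glycolysis and pyruvate 5.59 (5 to 5.18) and antioxidant and metallothionein 7.17 (6.4 to 6.58). Among single genes its log2 CPM was Atoh1 1.69 (5.25 to 6.01), Axin2 -0.42 (2.61 to 4.51), Camp 2.87 (-4.47 to -3.46), Ccnd1 5.9 (7.17 to 7.92), Il1r2 6.55 (1.06 to 3.3), Mki67 6.01 (6.86 to 7.5), Ngp 7.52 (-3.55 to 0.56), Nox1 1.95 (3.89 to 5.3) and Ptger3 0.54 (1.51 to 2.15). Further values of log2 CPM were Slc2a1 8.78 (6.73 to 7.56), Slc2a3 4.34 (0.53 to 2.01) and Slc51b 6.7 (4.93 to 5.6).

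In other libraries the values were fewer. Library d3_KO_350 showed the mean log2 CPM of list proliferation 4.24 (4.77 to 5.16) and a log2 CPM of Mmp13 -4.47 (-2.14 to -0.86). Library d3_KO_351 showed a log2 CPM of Slc51b 3.02 (4.03 to 4.73). Library d3_KO_385 showed the mean log2 CPM of list small intestine 0.87 (-0.22 to 0.08). Library d3_KO_387 showed a log2 CPM of Camp -3.12 (-4.47 to -4.47), Ces2g 3.83 (4.55 to 5.02), Hoxa13 4.74 (5.19 to 5.41) and Mmp10 -2.19 (-4.47 to -3.87). Library d7_KO_367 showed a log2 CPM of Pfkp 8.49 (7.79 to 8.03). Library d7_KO_421 showed a log2 CPM of Eno3 5.09 (2.68 to 3.48), Hoxd12 -2.3 (-4.47 to -3.55), Itih2 -0.4 (-3.93 to -2.42) and Timp3 2.81 (0.73 to 1.6).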

How the results depend on the processing

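With all 15 KO libraries 3008 genes passed. Leaving out 1 library in turn gave 2470 to 3518 genes, and leaving out the library labelled d3_KO_345 and another gave 2850 to 4418. DESeq2's size factors gave 3003 genes, its Wald test 3818 (4415 without the library labelled d3_KO_345), no filter 2929, a mean CPM of at least 1 2503, 1 lane 2605, robust fitting 3001, removal of mitochondrial-genome and immunoglobulin genes 2964, the fit of 29 libraries 3028 and the animal number range as a covariate 2978. Larger moves came with the 2-fold rule (1261), which keeps a part of the same calls. They also came within the lower-numbered animals (1804 genes, or 5423 without the library labelled d3_KO_345) and within the higher-numbered animals (1183). Those fits within a range hold fewer libraries, and the cause of their moves was not tested. In WT the count was 3002, with 2323 to 4051 when 1 library was left out, 4179 by the Wald test and 3150 without a filter. The interaction gave 0 genes in every fit run. The mean level was higher on day 7 in 24 of 35 lists, and in 24 with a prior count of 0.5 or without the library labelled d3_KO_345. Within the lower-numbered animals the direction turned for Dclk1 (0.31, and 0.40 without the library labelled d3_KO_345) and Rsad2 (-1.03 and -1.01); the cause was not tested. Of 160 named genes that passed, 14 lost the call when single libraries were left out (number of such libraries, highest adjusted p from edgeR): Ccl28 (10, 0.0859), Cxcl10 (7, 0.086), Dclk1 (8, 0.0667), Ephb3 (9, 0.0927), Gsdmc2 (8, 0.0666), Isg15 (5, 0.0801), Junb (7, 0.0673), Ly6a (10, 0.0684), Ly6g (10, 0.109), Oasl2 (5, 0.073), Pou2f3 (1, 0.052), Ptger4 (5, 0.0611), Trpm5 (6, 0.0622) and Znrf3 (10, 0.0941). Of those that did not pass, 11 passed without certain libraries: Casp8 (d3_KO_345, d3_KO_388), Ccl2 (d3_KO_345), Ccr2 (d3_KO_345, d7_KO_420), Ctss (d7_KO_366, d3_KO_385, d7_KO_423), Cxcl1 (d3_KO_345), Hoxa10 (d7_KO_366), Igha (d3_KO_350), Jchain (d3_KO_350), Mrc1 (d3_KO_345), Ppif (d3_KO_345, d7_KO_366, d3_KO_388, d7_KO_420) and Spdef (d3_KO_385, d3_KO_392, d7_KO_423). Low genes rest on few reads: 3 counts are 0.0495 to 0.109 CPM. No paired analysis was possible because the animal numbers of the 2 days and genotypes are not shared.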

Other observations

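Few genes of the endoplasmic reticulum (ER) stress response changed with all KO libraries. Of 31 genes of ER chaperones and the integrated stress response, 1 rose and 2 fell, against 10.5% and 8.83% of all genes tested. The median log2 fold change was 0.09. The counts were the same without the library labelled d3_KO_345, whereas 8 changed without d7_KO_420. Slc7a11, which imports cystine for glutathione, stood at 2.14, 2.80 and 5.25 CPM on day 3 and 4.65, 9.64 and 30.3 CPM on day 7 (2.15 ± 0.36 SE, adjusted p = 0.000512). Ern2, a stress sensor of goblet cells, fell (-0.76 ± 0.11 SE, adjusted p = 0.00017), as did Ddit3, a transcription factor of the stress response (-0.77 ± 0.17 SE, adjusted p = 0.00442). Counts differed by range of animal numbers: within the lower-numbered animals without the library labelled d3_KO_345, 15 rose and 8 fell (17.3% and 17.1% of all genes), and within the higher-numbered animals, 2 rose and 1 fell (4.85% and 2.8% of all genes). The difference between the ranges was not tested.

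Of 24 antioxidant and metallothionein genes, 4 rose and 3 fell, against 10.5% and 8.83% of all genes tested. The counts were 6 and 3 without the library labelled d3_KO_345, and 4 changed without d3_KO_350 or d3_KO_392. Hmox1, which degrades haem and is abundant in macrophages, changed by 1.73 ± 0.35 SE, adjusted p = 0.00223. Selenbp1, a selenium-binding protein of mature colonocytes, fell (-0.76 ± 0.17 SE, adjusted p = 0.00485), and Slc39a4, a zinc importer, rose (0.73 ± 0.18 SE, adjusted p = 0.00762).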
